A study of Homo sapiens with 2 samples.

Results

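Metallothionein and zinc handling genes were examined as a set of 10 genes of 49900 gene names in the isoform table. They comprise 6 metallothioneins (MT1A, MT1E, MT1G, MT1H, MT1X and MT2A), the metal-sensing transcription factor MTF1 and the transporters SLC30A1, SLC39A8 and SLC39A14. The genes were chosen by function and with the abundances of the same 2 libraries already known, MT2A having stood among the genes of highest ratio, so their ratios are a description and carry no test. RNA came from WI-38, a human lung fibroblast line with a limited lifespan in culture, kept in DMEM. The young group is 1 culture at population doubling level 20 and the senescent group 1 culture at level 52, reached by replicative senescence. No other treatment is named in the labels for either. Each group holds 1 library of total RNA, so no spread between cultures is known, and the effect of senescence cannot be told apart from any other difference between the 2 cultures.

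Metallothioneins are small, cysteine-rich proteins that bind zinc, copper and cadmium through their thiol groups, and they buffer the free zinc of the cell. Their genes are switched on when zinc rises: MTF1 binds zinc through its zinc fingers, enters the nucleus and binds metal response elements in metallothionein promoters and in the promoter of SLC30A1, the zinc exporter of the plasma membrane. SLC39A8 and SLC39A14 carry zinc, manganese and iron in the opposite direction, into the cytosol. Glucocorticoids, oxidants and cytokines of the IL6 family are further known inducers of metallothioneins in many cell types.

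The human metallothionein paralogs are so alike that short reads of one can match another. To show how alike, the coding sequences of the gene of highest abundance and of 3 paralogs are given below, from GENCODE release 29 transcripts on GRCh38, 5′ to 3′, with bases that differ from MT2A at the same position in capitals. They lie on chromosome 16, at chr16:56608656-56609354 for MT2A, chr16:56682541-56684049 for MT1X, chr16:56625852-56626971 for MT1E (all on the plus strand) and chr16:56666879-56667993 for MT1G (minus strand), introns included.
MT2A: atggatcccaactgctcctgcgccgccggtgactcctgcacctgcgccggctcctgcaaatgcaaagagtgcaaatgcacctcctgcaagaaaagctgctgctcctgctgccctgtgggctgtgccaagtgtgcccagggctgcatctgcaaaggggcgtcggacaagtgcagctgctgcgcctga
MT1X: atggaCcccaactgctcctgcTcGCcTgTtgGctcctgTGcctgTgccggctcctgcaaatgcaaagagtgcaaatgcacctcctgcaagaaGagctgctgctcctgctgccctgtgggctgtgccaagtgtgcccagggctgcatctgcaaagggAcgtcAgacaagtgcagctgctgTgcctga
MT1G: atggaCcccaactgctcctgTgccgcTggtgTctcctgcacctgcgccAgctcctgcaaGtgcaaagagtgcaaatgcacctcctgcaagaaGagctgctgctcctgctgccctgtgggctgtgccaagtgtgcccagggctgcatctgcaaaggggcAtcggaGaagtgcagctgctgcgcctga
MT1E: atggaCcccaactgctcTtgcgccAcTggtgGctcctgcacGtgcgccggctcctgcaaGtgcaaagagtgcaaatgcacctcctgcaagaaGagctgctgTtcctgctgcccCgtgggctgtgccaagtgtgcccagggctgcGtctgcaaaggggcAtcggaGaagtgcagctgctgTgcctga
Each coding sequence of the 6 members had 186 bases with the stop codon and 20 cysteine codons among 61. MT1G differed from MT2A at 9 bases, MT1X, MT1E and MT1A at 14 and MT1H at 15. Over the 15 pairs the identity ranged from 90.9% to 95.2%.

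How far this likeness reaches into reads was measured on whole transcripts, as the share of 50-base windows that occur letter for letter in a transcript of another gene. It was 4.88% for MT2A, 5.34% for MT1E and 5.76% for MT1A, against 20.2% for MT1G, 20.4% for MT1H and 45.1% for MT1X. With 100-base windows the share was 0% for MT2A, MT1E, MT1A and MT1G, 3.36% for MT1H and 19.1% for MT1X. The read length and the handling of reads that fit several places are not given in the sources used here. MT1X and, less so, MT1G and MT1H share the most sequence with other genes, and their separate values are uncertain to that extent.

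The file lists 202463 transcripts, and abundances are in FPKM, which scales fragments by the transcript's length and by the library's size. Of all genes, 17965 reached 1 FPKM in at least 1 library and were counted as measured. In each pair of values below, the young library comes before the senescent one. Log2 ratios are of senescent over young after adding 1 FPKM to both, which understates the ratio of genes of low level, and 2-fold calls refer to this scale. No depth is stated in the sources used here. The step of the values in unnamed loci with a single transcript gave an effective depth of 15880000 (young) and 14780000 (senescent) fragments, where 73.8% of 4101 and 77.0% of 4336 values came within 0.05 of a whole fragment number. Fragment numbers given below are equivalents at these depths and at lengths reduced by 200 bases, not counts. In bulk RNA, fewer cells of a type and less RNA per cell cannot be told apart. Senescence checks stood at 306 and 862 FPKM for the cell cycle inhibitor gene CDKN1A, 37.5 and 0.901 FPKM for the lamin gene LMNB1 and 34.7 and 1.33 FPKM for the proliferation gene MKI67. Of 12 fibroblast markers, all measured, 6 were at least 2-fold lower and 0 higher, against 8.58% and 6.65% of all measured genes. Their summed level was 17506 and 8373 FPKM. The 8 epithelial markers summed to 16.8 and 9.90 FPKM, with KRT5, KRT14 and SFTPC at 0, KRT19 at 11.5 and 1.37 FPKM and KRT18 at 2.84 and 6.75 FPKM. The 5 endothelial ones in the file summed to 18.9 and 8.72 FPKM, nearly all of it TEK at 18.8 and 8.16 FPKM, with CDH5 at 0. The 8 blood markers summed to 72.2 and 64.3 FPKM, of which CD163 made up 53.9 and 40.3 FPKM and CD68 14.3 and 21.1 FPKM, with CD3E at 0. The part of these markers in the results below was not tested.

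All 6 metallothionein members were more abundant in the senescent library, and 4 of them by close to the same factor. All 6 passed 2-fold, as did 6.65% of all measured genes in that direction. MT2A, the most abundant isoform of most human cells, stood at 77.8 and 805 FPKM, 10.4-fold higher, log2 ratio 3.36. MT1X stood at 6.57 and 62.5 FPKM, 9.50-fold higher, log2 ratio 3.07. MT1G stood at 3.97 and 41.9 FPKM, 10.6-fold higher, log2 ratio 3.11. MT1H was the lowest of these 4, at 0.9995 and 9.85 FPKM, 9.86-fold higher, log2 ratio 2.44. In level these 4 genes ran from 0.9995 to 77.8 FPKM in the young library, while their factors spanned 9.50 to 10.6. In the young library MT1H rested on about 3.13 fragments and MT1G on 12.7, too few to resolve so narrow a span. MT1X, MT1G and MT1H also share sequence with other genes, so these factors may not be independent of one another.

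MT1E and MT1A had smaller factors. MT1E stood at 21.2 and 51.7 FPKM, 2.44-fold higher, log2 ratio 1.25. MT1A stood at 1.23 and 6.04 FPKM, 4.89-fold higher, log2 ratio 1.66. MT1E was second only to MT2A among the 6 in the young library and below both MT2A and MT1X in the senescent one.

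**Figure D1:**
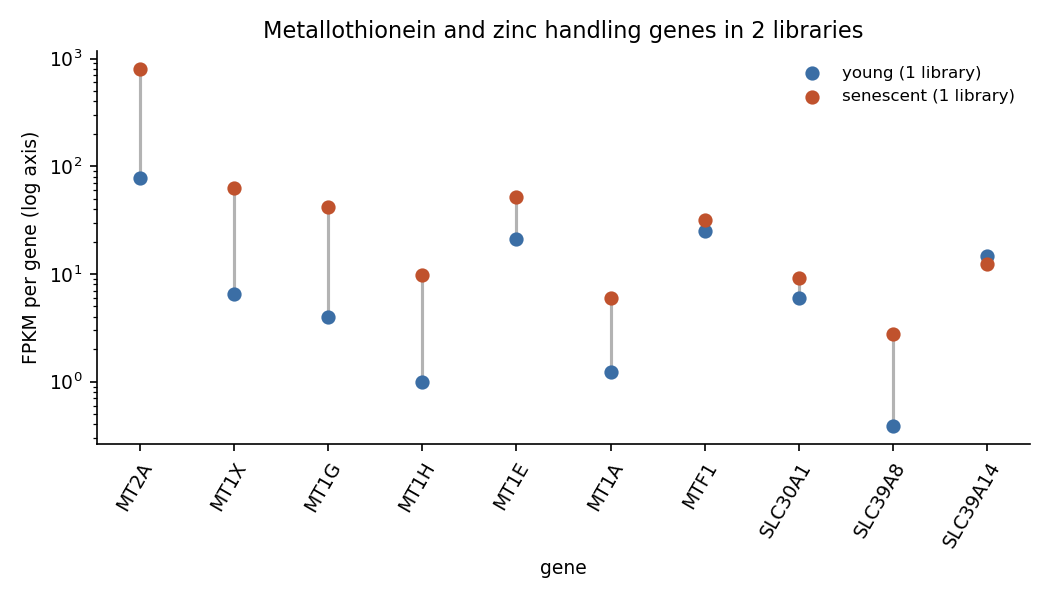
FPKM per gene on a log axis for the 10 genes, with the young library in blue, the senescent library in rust red and a grey line joining the pair (1 library each, so no error bars). The lines of MT2A, MT1X, MT1G and MT1H have nearly equal lengths, SLC39A8 has a long line at low level, and the points of MTF1, SLC30A1 and SLC39A14 lie close together.

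Added up, the 6 metallothioneins came to 111.7 and 977 FPKM, 8.75-fold higher, log2 ratio 3.12. MT2A made up 69.6% of the young sum, 82.4% of the senescent sum and 84.1% of the difference. The share of MT1E was 18.9% and 5.29%, and that of MT1X 5.88% and 6.39%. Without MT2A the 5 MT1 members came to 33.9 and 171.9 FPKM, 5.07-fold higher. These shares compare levels per length within a library.

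The fragments behind these values differ widely. MT2A corresponded to about 724 and 6975 fragments, MT1E to 154 and 345, MT1X to 26.1 and 231 and MT1G to 12.7 and 125. MT1H and MT1A rested on about 3.13 and 3.80 fragments in the young library and 28.7 and 17.3 in the senescent library, so their factors are the least precise. MT1A is also the metallothionein whose call depends on the scale, with a log2 ratio of 0.82 when 5 FPKM are added.

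In the authors' deposited table, which tests each transcript between the 2 libraries without replicates, the transcript of MT2A has a q-value of 3.27e-07, that of MT1X 0.000537, MT1G-002 0.000803 and MT1H 0.0177, all marked significant as higher. MT1A has a q-value of 0.144 there, and the 3 isoforms of MT1E have 0.147, 0.278 and 0.301, none of them marked. Of 9 metallothionein transcripts used, 4 were so called, and of all 107936 transcripts the authors tested 1.32% were called higher. Since the members were chosen with these values known, nothing is read from the difference in shares.

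By isoform, MT1E was carried mainly by the 704-base MT1E-001 at 16.3 and 36.7 FPKM, with an assembled 484-base isoform at 4.50 and 12.4 FPKM and MT1E-002 at 0.355 and 2.58 FPKM. All 3 were higher in the senescent library. MT1G has 2 annotated transcripts of 405 and 402 bases in the file. The shorter one, MT1G-002, held all but a trace of the gene's value in both libraries, and the longer one, MT1G-001, is listed at 0.000211 and 0 FPKM.

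The metallothionein cluster lies on chromosome 16, in hg19 from MT2A at chr16:56642111-56643409 through MT1E at chr16:56659387-56661024, MT1A at chr16:56672578-56673999, MT1G at chr16:56700643-56701977 and MT1H at chr16:56703726-56705041 to MT1X at chr16:56716336-56718108. MT1G alone of the members is on the minus strand. The members with factors near 10 stand at both ends, with MT2A at one end and MT1G, MT1H and MT1X from 58.5 to 74.2 kb away, and MT1E and MT1A between them at 17.3 and 30.5 kb. The pseudogene MT1JP, at 27.5 kb, was at 2.36 and 6.06 FPKM, 2.56-fold higher, near the factor of MT1E.

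The other named metallothionein genes of the cluster, apart from MT1JP, were low or silent. MT1F stood at 0.206 and 0.959 FPKM, MT1M at 0.466 and 0.780 FPKM and MT3, the brain-enriched metallothionein, at 0.0388 and 0.221 FPKM, all under 1 FPKM in both libraries. MT1B, MT1DP and MT4, the epithelial metallothionein, are listed at 0 in both, and MT1CP at 0.0577 and 0 FPKM. One further gene of the same assembled locus, AC026461.2, was noticed after its values were seen. Its transcripts of 425 and 231 bases were at 4.63 and 87.8 and at 3.08 and 46.6 FPKM, in sum 7.72 and 134 FPKM, 17.4-fold higher. The file gives it no biotype and no position apart from the locus chr16:56651362-56673997, which it shares with MT1E, MT1M, MT1JP and MT1A.

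**Figure D2:**
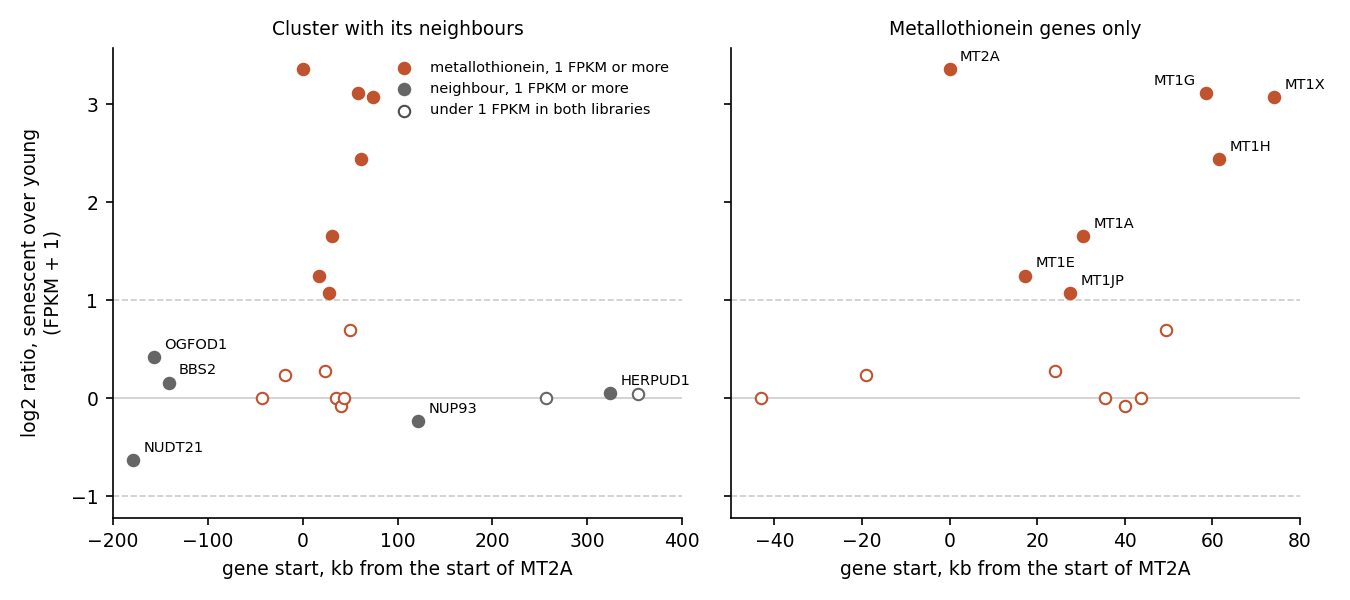
Log2 ratio of senescent over young (FPKM + 1) against the distance of each gene's start from that of MT2A, with metallothioneins in rust red, the nearer neighbours in grey, open circles for genes under 1 FPKM in both libraries and dashed lines at 2-fold. The filled metallothionein points rise to 3.36 in a window of 74.2 kb, MT1E, MT1JP and MT1A lie below MT2A, MT1G, MT1H and MT1X, and every filled grey point lies between the dashed lines.

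The genes beside the cluster did not share its ratios. Of 10 neighbours on chromosome 16, 6 were measured, with a median log2 ratio of 0.10. Of these 6, 0 were at least 2-fold higher or lower. Over all measured genes 6.65% were higher and 8.58% lower, so a count of 0 among 6 is not unusual. The nearest measured ones on each side, named for their position, are BBS2, a gene of cilium assembly, at 10.8 and 12.1 FPKM, and the nucleoporin gene NUP93 at 18.5 and 15.6 FPKM. NUDT21, which encodes a subunit of the cleavage factor that sets polyadenylation sites, was the lowest at 10.3 and 6.28 FPKM, log2 ratio -0.63.

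Processed metallothionein pseudogenes on other chromosomes had factors close to that of MT2A. MT1P1 on chromosome 9 was at 3.32 and 34.8 FPKM, MT1XP1 on chromosome 1 at 8.10 and 88.5 FPKM and MT1P2 on chromosome 4 at 31.1 and 290 FPKM. Their factors ran from 9.32 to 10.9. MT1P2 carries the gene identifier that GENCODE release 29 gives to MT2P1. Windows of 50 bases of MT2A, MT1X and MT1G are shared with MT1P1 and MT1XP1, and windows of MT2A and MT1E with MT2P1. Whether the values of these pseudogenes are their own transcripts or reads of the parent genes was not tested. MT1P2 and MT1XP1 have 186 bases, less than the 200 bases taken off each length above, so no fragment number can be given and their FPKM levels cannot be set beside those of longer genes. MT1P3, which the file lists as an antisense gene on chromosome 20, was at 11.8 and 14.4 FPKM. Of 21 listed names of metallothionein genes and pseudogenes, 18 are in the file. MT2P1 is counted as not in it, although MT1P2 carries its identifier. In all, 11 were measured, and 10 passed 2-fold upward and 0 downward, against 6.65% and 8.58% of all measured genes. The median log2 ratio of these 11 was 3.05, against -0.10 over all measured genes.

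Of all 10 members, 7 were at least 2-fold higher and 0 lower, where 6.65% of measured genes were higher and 8.58% lower. The choice of members used this contrast, so the count is a description. The seventh was SLC39A8, at a low level, and without 1 isoform of under 1 fragment, a setting chosen after seeing the data, it was under 2-fold and 6 members were past it.

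MTF1, the zinc sensor itself, differed by less than 2-fold. It stood at 25.3 and 31.6 FPKM, 1.25-fold, log2 ratio 0.31, on chromosome 1 at chr1:38279851-38325292, minus strand. The full-length MTF1-001 of 3360 bases was at 4.30 and 5.22 FPKM, a 600-base coding isoform at 16.1 and 19.6 FPKM and the noncoding MTF1-002 at 4.69 and 6.84 FPKM. All 3 were slightly higher in the senescent library. An unnamed isoform of 1433 bases is listed at 0.129 and 0 FPKM. Assembled transcripts outside the exon structure did not follow one direction. The 6 transcripts within MTF1 introns summed to 5.01 and 5.11 FPKM, the 2 past the gene's end to 11.2 and 5.24 FPKM and the 1 on the opposite strand was at 5.77 and 5.93 FPKM. The strand setting of the library is not stated, so the last cannot be assigned to a strand with certainty.

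SLC30A1, an MTF1 target that moves zinc out of the cell, stood at 5.95 and 9.20 FPKM, 1.55-fold, log2 ratio 0.55, from a single 5455-base transcript at chr1:211744910-211752065. With about 497 and 715 fragments it is one of the better covered members. The authors' deposited table gives it a q-value of 0.580. Its factor was thus below that of every metallothionein member, the lowest of which was 2.44 for MT1E.

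SLC39A8, which imports zinc and manganese, stood at 0.385 and 2.79 FPKM, 7.24-fold higher, log2 ratio 1.45, at chr4:103172198-103352415. The 3144-base coding isoform SLC39A8-001 made up 1.35 FPKM of the gene's difference of 2.40 FPKM, standing at 0.119 and 1.47 FPKM, about 5.57 and 64.1 fragments, with a q-value of 0.00926 in the authors' deposited table. SLC39A8-003 was listed at 0 and at 0.146 FPKM, and the noncoding SLC39A8-005 at 0.266 and 0 FPKM. The 251-base noncoding SLC39A8-008, listed at 0 and at 1.17 FPKM, corresponds to less than 1 fragment (0.881), yet it makes up 1.17 FPKM of the difference. Without it SLC39A8 stood at 0.385 and 1.62 FPKM, 4.202-fold higher, and its log2 ratio of 0.92 was under 2-fold. The gene's log2 ratio was 0.53 when 5 FPKM were added, which ends the 2-fold call as well.

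SLC39A14, the paralog of SLC39A8 and a carrier of manganese, iron and zinc, differed by less than 2-fold as a whole. It stood at 14.7 and 12.3 FPKM, 0.839-fold, log2 ratio -0.24, on chromosome 8 at chr8:22224762-22291642. Its isoforms went both ways. The 4641-base SLC39A14-001 was at 2.98 and 1.01 FPKM, log2 ratio -0.99 and a q-value of 0.204 in the authors' deposited table, while an assembled isoform of 4621 bases was at 3.11 and 4.002 FPKM. Of 15 transcripts used, 9 were above 0, of which 2 were higher and 7 lower in the senescent library by any amount. When the most abundant isoform stands for the gene, the direction turns, with a log2 ratio of 0.28.

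**Figure D3:**
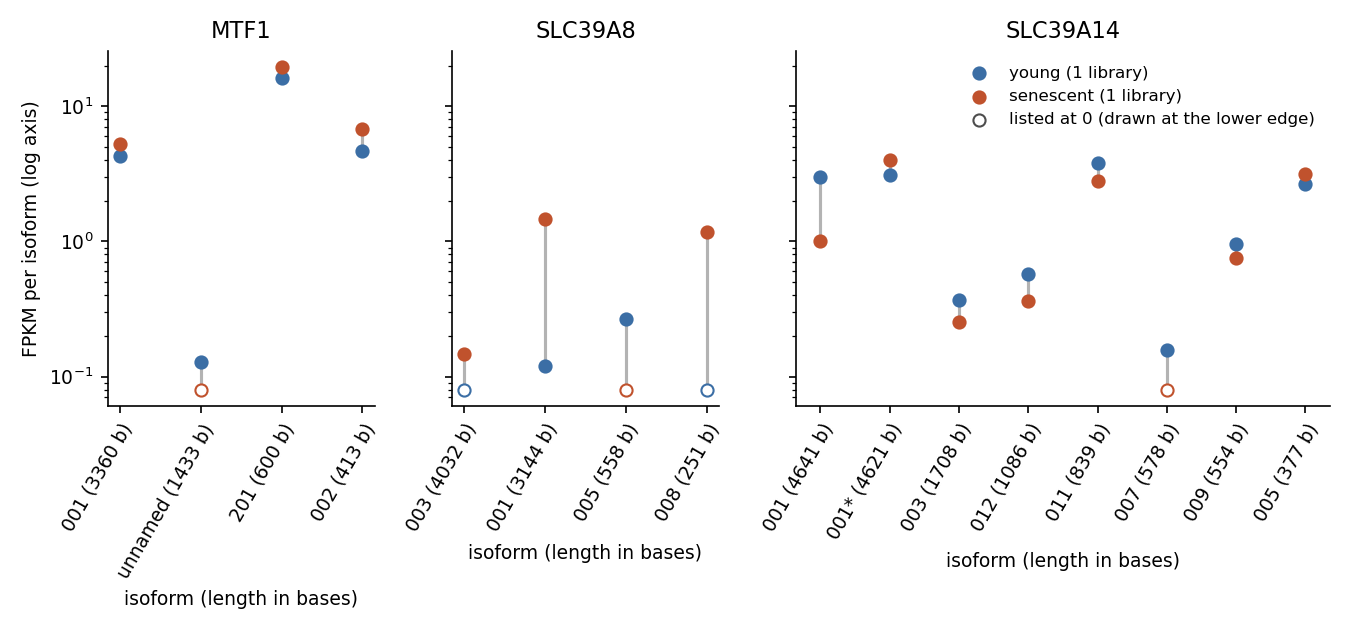
FPKM per isoform on a log axis for MTF1, SLC39A8 and SLC39A14, ordered by length in bases (b), with the young library in blue and the senescent library in rust red, open circles at the lower edge for values listed at 0 and an asterisk for an assembled isoform; isoforms above 0.1 FPKM in either library are drawn. SLC39A8-001 rises from 0.119 to 1.47 FPKM, and the 2 long SLC39A14 isoforms move apart.

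None of the remaining measured zinc transporters passed 2-fold, where 6.65% of all measured genes were higher and 8.58% lower. Among the 5 other measured SLC30A genes, of a family that mostly moves zinc out of the cytosol, 0 passed 2-fold. Their log2 ratios ran from -0.17 to 0.83. SLC30A4, a vesicular exporter, was at 2.71 and 5.60 FPKM, a plain ratio of 2.07 but a log2 ratio of 0.83 with 1 FPKM added, SLC30A5, of the early secretory pathway, at 43.8 and 60.5 FPKM and SLC30A9 at 29.8 and 26.4 FPKM. Over all 6 measured SLC30A genes the median log2 ratio was 0.49. Among the 9 other measured SLC39A genes, which move zinc into the cytosol, 0 passed 2-fold, and log2 ratios ran from -0.05 to 0.41. SLC39A6, the most abundant, stood at 39.8 and 41.8 FPKM. Over all 11 the median was 0.20. SLC39A8 had both the lowest level and the highest ratio of these 11.

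**Figure D4:**
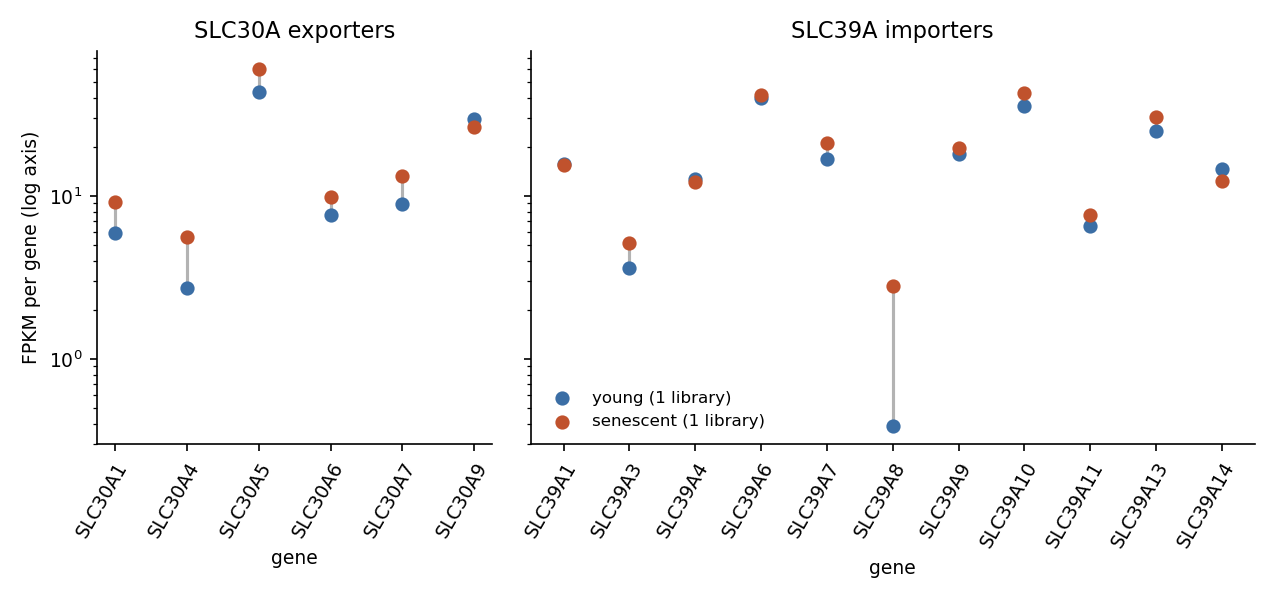
FPKM per gene on a log axis for the measured zinc exporters (left) and importers (right), young library in blue and senescent library in rust red. SLC39A8 shows the widest gap, from 0.385 to 2.79 FPKM, and SLC30A4 the next widest at 2.71 and 5.60 FPKM.

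Copper, the other metal that metallothioneins hold in cells, is taken up and sorted by a different set of proteins. Of 13 measured copper handling genes, 3 had ratios past 2-fold upward and 0 downward, against 6.65% and 8.58% of all measured genes. Their median log2 ratio was 0.57. SLC31A2, a copper transporter of endosomes, was at 0.801 and 5.24 FPKM, log2 ratio 1.79. SLC31A1, the copper importer of the plasma membrane, was at 55.0 and 130 FPKM and the copper pump ATP7B at 1.67 and 4.61 FPKM, both named after their values were seen. SOD1, the copper and zinc superoxide dismutase, stood at 88.7 and 145 FPKM, and its copper chaperone CCS at 4.96 and 3.85 FPKM.

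Genes that respond to metals and oxidants included 12 measured ones, with a median log2 ratio of 0.89. Of these, 6 were past 2-fold upward and 0 past it downward, against 6.65% and 8.58% of all measured genes. SLC7A11, the cystine importer, was at 10.2 and 45.7 FPKM and the thioredoxin reductase gene TXNRD1 at 80.1 and 309 FPKM. HMOX1, the heme oxygenase that cadmium strongly induces, was the lowest at 18.2 and 12.01 FPKM. Log2 ratios were above 0 for 9 genes of this list and below 0 for 3. Besides HMOX1, the latter were the heat shock genes HSPA1A at 34.5 and 27.5 FPKM and HSPA1B at 32.2 and 25.3 FPKM. Both were named after their values were seen. The other 4 past 2-fold, named after their values were seen, were SRXN1, which encodes sulfiredoxin, at 6.82 and 20.5 FPKM, the glutathione synthesis gene GCLM at 7.93 and 19.3 FPKM, the cochaperone gene BAG3 at 25.9 and 59.99 FPKM and the quinone reductase gene NQO1 at 44.7 and 91.0 FPKM.

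Genes of 2 other known routes of metallothionein induction were also set out, and the part of either route was not tested. The 8 measured genes of the glucocorticoid list included 2 past 2-fold upward and 2 past it downward, against 6.65% and 8.58% of all measured genes. Their median log2 ratio was -0.09. The phosphatase gene DUSP1 was at 15.1 and 36.4 FPKM, FKBP5, a cochaperone of the glucocorticoid receptor, at 6.26 and 1.12 FPKM and the kinase gene SGK1 at 39.9 and 33.97 FPKM. Named after their values were seen, TSC22D3 was the other gene higher at 1.66 and 5.11 FPKM and CEBPD the other lower at 9.61 and 2.41 FPKM. Of 10 measured genes of IL6 family signalling, 0 passed 2-fold either way, with a median of -0.17. Log2 ratios were above 0 for 3 of them and below 0 for 7. The feedback inhibitor gene SOCS3 was the lowest at 6.62 and 3.39 FPKM, STAT3 the highest in ratio at 29.8 and 40.5 FPKM and the shared receptor gene IL6ST the most abundant at 370 and 354 FPKM.

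**Figure D5:**
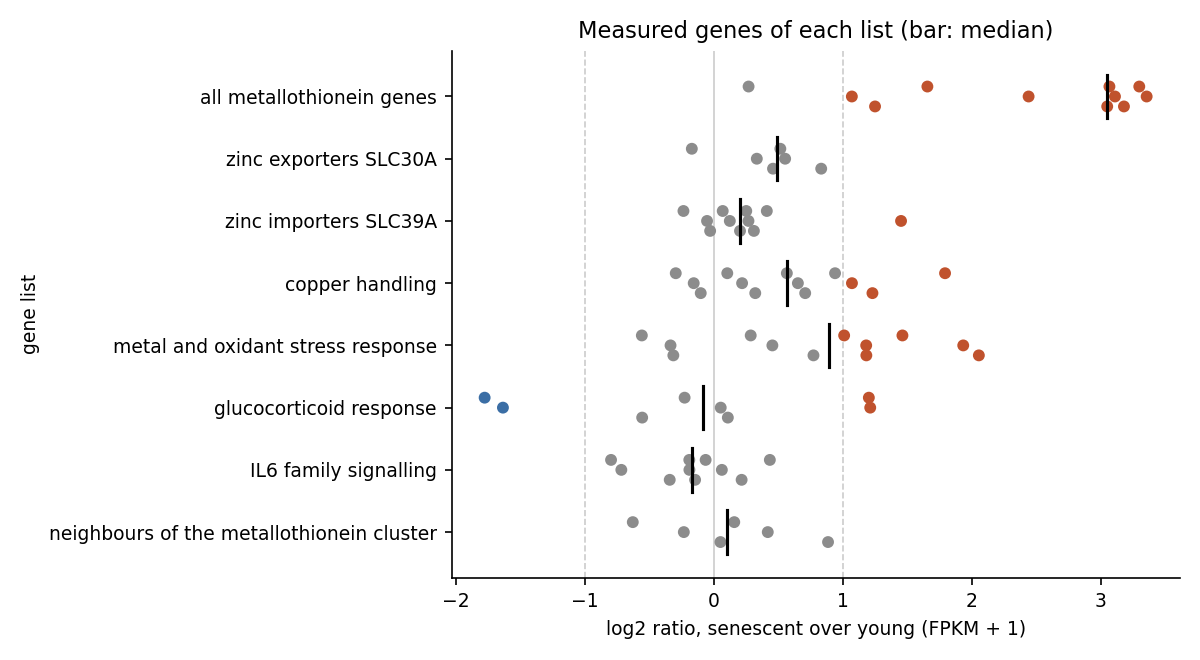
Log2 ratio of senescent over young (FPKM + 1) for each measured gene of the 8 lists, 1 point a gene, with a black bar at the list's median, dashed lines at 2-fold, rust-red points at least 2-fold higher and blue points at least 2-fold lower. The metallothionein list has its median at 3.05, the medians of the other lists lie between -0.17 and 0.89, and blue points occur in the glucocorticoid list alone.

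Genes with a pair of values near that of MT2A were also sought. By distance between pairs of log2(FPKM + 1) values over the 2 libraries, among 19773 other protein-coding genes, the nearest 5 were PERP at 69.7 and 561 FPKM (distance 0.54), IGFBP7 at 49.2 and 741 FPKM (0.66), AKAP2 at 96.6 and 364 FPKM (1.19), AKR1B1 at 188 and 826 FPKM (1.27) and PEA15 at 123 and 376 FPKM (1.28). PERP encodes a membrane protein of desmosomes and a p53 target, and IGFBP7 a secreted binding protein. Likeness over 2 libraries rests on 2 numbers per gene.

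Promoters were set beside these ratios because MTF1 is known to act through a short core motif. RefSeq promoters (GRCh38.p14, 250 bases before to 50 after each gene's start) matched 6 of the 10 members, and MT1A, MT1E, MT1G and SLC39A14 were without one. Each was searched on both strands for the cores TGCACNC and TGCGCNC, where N is any base, and no match overlapped another. MT2A and MT1H held 8 matches each, a number that 0.0199% of 35116 promoters of the same length reach. MT1X held 4 (0.601% hold as many), SLC30A1 held 2 (8.60%) and MTF1 held 0. Of 3 promoters listed for SLC39A8, 2 held 0 and 1 held 1, which 29.6% of promoters do. G and C made up 72.0% of the MT2A window, 68.3% of that of MT1H, 67.0% of MT1X, 68.0% of SLC30A1 and 69.7% of MTF1. The 35116 promoters were not matched to these windows in G and C. The part of base composition in the numbers of matches was not tested. A match is a run of letters and not a bound site.

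The stretches before the start are printed for a metallothionein with many matches (MT1H), one with fewer (MT1X) and the exporter gene (SLC30A1), 5′ to 3′ on the gene's strand, with the core matches in capitals. They lie at chr16:56669564-56669813 (plus strand), chr16:56682220-56682423 (plus strand, stopped at the first annotated exon) and chr1:211579162-211579411 (minus strand) in GRCh38.p14.
MT1H: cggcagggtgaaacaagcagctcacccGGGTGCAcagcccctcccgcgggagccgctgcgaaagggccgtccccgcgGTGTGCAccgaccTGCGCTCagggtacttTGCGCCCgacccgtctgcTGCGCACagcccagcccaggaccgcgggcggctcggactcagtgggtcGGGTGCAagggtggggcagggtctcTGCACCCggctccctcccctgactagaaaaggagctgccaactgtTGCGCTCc
MT1X: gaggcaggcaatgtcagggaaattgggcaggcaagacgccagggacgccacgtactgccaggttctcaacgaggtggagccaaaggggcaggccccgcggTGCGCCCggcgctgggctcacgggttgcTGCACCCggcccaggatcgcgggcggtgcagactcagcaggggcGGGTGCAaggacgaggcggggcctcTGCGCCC
SLC30A1: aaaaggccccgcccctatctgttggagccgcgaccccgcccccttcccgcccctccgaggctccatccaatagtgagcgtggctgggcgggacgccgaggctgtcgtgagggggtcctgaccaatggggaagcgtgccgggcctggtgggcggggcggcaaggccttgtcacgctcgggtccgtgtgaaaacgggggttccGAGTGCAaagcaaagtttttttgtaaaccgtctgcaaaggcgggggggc
The MT1H stretch holds all 8 of its matches, the MT1X stretch all 4 and the SLC30A1 stretch 1 of its 2. For MT2A the window overlaps an annotated exon, and 3 of its 8 matches are given with their flanks, at offsets -168, -88 and -54 from the start, at chr16:56608408-56608430, chr16:56608488-56608510 and chr16:56608522-56608544.
MT2A at -168: cgcggcccGTGTGCAgagccggg
MT2A at -88: cgcggggcGTGTGCAggcagcgc
MT2A at -54: ggggctttTGCACTCgtcccggc
MT1H and MT2A, with 8 matches each, had factors of 9.86 and 10.4, MT1X with 4 had 9.50 and SLC30A1 with 2 had 1.55. MTF1 with 0 matches had 1.25. SLC39A8 with at most 1 match had 7.24, or 4.202 without its short isoform. MT1B, the only gene outside the members whose promoter was looked at, was added apart from the naming rule. It has 3 matches and is listed at 0 FPKM in both libraries. No number of matches can be set beside the factors of MT1G (10.6), MT1A (4.89), MT1E (2.44) and SLC39A14 (0.839), which had no promoter. No relation was tested.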

How the data were processed

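Total RNA of 1 young and 1 senescent WI-38 culture was amplified from both tailed and untailed transcripts and sequenced, per the labels' protocols. The submitters' processing notes name the tools TopHat2 2.0.6, Cufflinks 2.0.2 and Cuffdiff and the build hg19. Their settings, the annotation and the strand setting are not given in the sources used here. The deposited table gives, per the file headers, FPKM for each transcript in each library, and the authors' p-value and q-value. The authors mark as significant transcripts of status OK with a q-value under 0.1. The authors' deposited fold change, a ratio, matched the ratio of the FPKM columns within 1% in all 107455 transcripts above 0 in both libraries and was not used further. The column for old cells was taken as the senescent sample.

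Gene values were FPKM sums over transcripts classed as complete matches, assembled isoforms or contained ones, which can include noncoding isoforms. Short transcripts weigh more in FPKM, since few bases divide their fragments. With 1 library per group no test was made. Genes reaching 1 FPKM in either library counted as measured, and a ratio of 2-fold after adding 1 FPKM as higher or lower. The arithmetic of gene sums and plain ratios was checked on young values multiplied by set factors. That check holds no noise and no shared reads, so it says nothing about the precision of the ratios. Python 3.11.15 with pandas 2.3.3 was used. The members and the 8 lists were chosen with earlier results of these data known. Named were all members, from each list the measured genes of highest ratio, lowest ratio and highest mean, all measured metallothioneins, the 5 genes nearest to MT2A and 3 senescence genes. Other names are marked, and 1 named gene's result is not reported here. The 12 alternative settings, and 1 chosen after seeing the data, are under the closing section. Protein sequences of the members were not used here.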

Additional observations from a re-analysis of the deposited data

Results flagged for a closer look

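A transcript of MT2A outside the classes used, 336 bases long and listed as possible unspliced RNA, was at 28.2 FPKM in the young and 249 FPKM in the senescent library, log2 ratio 3.10. It stands apart because the signal lies outside the gene values reported and above the young library. Its factor of 8.82 is close to that of the spliced transcript, 10.4. A 52-base transcript past the end of the pseudogene MT1P2 was at 6259 and 50946 FPKM, log2 ratio 3.02, also outside the gene values and above the young library. At 52 bases its FPKM level cannot be compared with that of other transcripts.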

How the results depend on the processing

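Of 90 member ratios under the first 9 alternative settings, 83 kept their direction, their side of 2-fold and their size within 1.5-fold. MT2A ranged from 3.29 to 3.44, MT1E from 1.12 to 1.34, MTF1 from 0.02 to 0.40 and SLC30A1 from 0.37 to 0.63. Adding 5 FPKM in place of 1 put MT1A at 0.82 and SLC39A8 at 0.53, under 2-fold, leaving 5 of 7 members past it, and lowered MT1G to 2.39 and MT1H to 1.31. Adding 0.1 FPKM gave 3.18 for MT1H and 2.57 for SLC39A8. Without its isoform SLC39A8-008, a setting chosen after seeing the data, SLC39A8 was at 0.92, also under 2-fold. Among members only SLC39A14 turned, to 0.28 with the isoform of highest mean FPKM. The metallothionein list's median was 2.26 with 5 FPKM added and 1.66 with no filter on low values. The glucocorticoid median turned to 0.021 with no filter, and that of the cluster's neighbours to -0.13 with transcripts of every class. Scaling by the upper quartile, median ratio or trimmed mean shifted log2 ratios by -0.01, 0.09 and 0.08 and turned no member, but with the median ratio 1396 genes were higher and 1393 lower, and with the trimmed mean 1384 and 1398, in place of the excess of lower genes. Over all genes, 464 were higher and 499 lower with 5 FPKM added, 751 and 911 when 5 FPKM were required, and 2492 lower with 0.1 FPKM added, against 1195 and 1541. Fragment numbers near 3 in the young library limit MT1H and MT1A. No paired analysis was possible because each group holds 1 library.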
